A study of Caenorhabditis elegans with 2 samples.

Results

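The 75 genes described here are homeobox genes of *Caenorhabditis elegans* outside 3 other groups. Those are the ONECUT genes, the Hox genes with their cofactors, and *mec-3*, *unc-86* and *unc-30* of touch receptor and GABA motor neurons with *alr-1* itself. Other homeobox genes that act in such neurons, such as *vab-15*, are among the 75. The 75 genes are the 53 protein-coding genes named *ceh* that lie in none of those groups and 22 further genes with names of their own. There are 19973 protein-coding genes in all. A region was given to the gene with the nearest protein-coding transcript start. By this rule 57 of the 12996 pooled candidate regions belonged to the 75 genes, with 16 of 5071 in replicate 1, 29 of 7568 in replicate 2, and 0 of the 103 regions that passed the threshold on IDR (irreproducible discovery rate), which scores how alike the ranks of a region are in the replicates. The rule goes by gene names and uses no measured value, though it was written with earlier results of these data known.

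ChIP-seq, in which DNA bound to a protein is recovered with an antibody and sequenced, was carried out for ALR-1 carrying an eGFP tag. The worms were whole L2 larvae of mixed sex of strain OP200, which has the *unc-119(ed3)* III mutation and the integrated transgene wgIs200 with tagged *alr-1*. There was 1 group with 2 biological replicates, so there was no untagged, untreated or mutant group to set it against, and a control library was not analysed here. The transgene adds to the worm's own gene copies, 1 strain was used, and lists from whole larvae do not tell in which cells a region was bound.

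Homeobox genes encode transcription factors that bind DNA through a homeodomain, most of them at sites with the core TAAT, and in *C. elegans* many of them fix the identity of single neuron classes. ALR-1 is a paired-like homeodomain protein related to Drosophila Aristaless, known for roles in sensory and motor neurons. In the Drosophila leg, Aristaless patterns the tip together with factors of the Bar and LIM classes, whose relatives in the worm include *ceh-30*, *ceh-31* and *lin-11*.

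To show what the regions described here look like in sequence, 6 of them are given. They are the 3 strongest pooled regions of the 75 genes (at *ceh-37*, *ceh-62* and *unc-39*) and the strongest region with TAATTA at *ceh-58*, *ceh-43* and *ceh-27*. Each run is the 201 bases around the region's point, read 5′ to 3′ on the plus strand of assembly WBcel235, which is ce11. Capitals mark each TAAT and its reverse complement, so that TAATTA, where both overlap, stands as 6 capitals. The runs are chrX:14194261-14194461 for *ceh-37*, chrII:10804580-10804780 for *ceh-62*, chrV:14368593-14368793 for *unc-39*, chrII:10373630-10373830 for *ceh-58*, chrIII:4452930-4453130 for *ceh-43* and chrV:11657561-11657761 for *ceh-27*.
ceh-37: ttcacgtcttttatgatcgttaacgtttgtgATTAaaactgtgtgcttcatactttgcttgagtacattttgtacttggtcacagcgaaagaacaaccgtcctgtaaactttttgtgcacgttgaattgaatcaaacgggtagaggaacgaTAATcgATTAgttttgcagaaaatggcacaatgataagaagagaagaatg
ceh-62: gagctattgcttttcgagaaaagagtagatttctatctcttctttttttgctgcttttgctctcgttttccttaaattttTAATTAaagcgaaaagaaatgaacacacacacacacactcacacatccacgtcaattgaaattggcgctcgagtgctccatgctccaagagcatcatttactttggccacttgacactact
unc-39: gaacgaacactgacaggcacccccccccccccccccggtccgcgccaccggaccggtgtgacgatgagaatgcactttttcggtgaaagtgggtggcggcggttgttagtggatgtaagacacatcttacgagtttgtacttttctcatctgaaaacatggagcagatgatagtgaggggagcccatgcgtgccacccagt
ceh-58: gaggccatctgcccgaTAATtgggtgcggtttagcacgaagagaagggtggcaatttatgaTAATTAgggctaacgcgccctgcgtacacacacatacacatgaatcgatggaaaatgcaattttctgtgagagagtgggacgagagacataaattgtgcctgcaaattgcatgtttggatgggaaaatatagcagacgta
ceh-43: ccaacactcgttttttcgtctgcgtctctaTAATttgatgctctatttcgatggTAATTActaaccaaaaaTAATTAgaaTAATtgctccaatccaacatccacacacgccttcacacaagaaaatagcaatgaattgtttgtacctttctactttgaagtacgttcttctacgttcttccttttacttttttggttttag
ceh-27: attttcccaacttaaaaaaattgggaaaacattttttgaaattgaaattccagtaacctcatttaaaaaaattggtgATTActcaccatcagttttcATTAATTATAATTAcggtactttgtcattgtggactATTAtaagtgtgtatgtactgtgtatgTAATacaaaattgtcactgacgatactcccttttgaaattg
The strongest run, at *ceh-37*, held 3 TAAT cores and no TAATTA, and the run at *unc-39* held no TAAT at all. The runs at *ceh-43* and *ceh-27*, from weak regions, held 2 TAATTA each, with 6 and 8 TAAT cores counted on both strands. Those at *ceh-58*, *ceh-43* and *ceh-27* were chosen for TAATTA, so their counts cannot be set against signal.

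Candidate regions lay beside 28 of the 75 homeobox genes in the pooled list (37.3%), against 36.8% of all protein-coding genes. In replicate 1 it was 15 homeobox genes (20%), against 18.5% of all genes, and in replicate 2 it was 17 (22.7%), against 24.4%. Background regions were deposited in the candidate lists along with peaks, and "candidate region" here means either. In all 3 lists the share of homeobox genes with a region was thus near the share of all genes. No homeobox gene of the set was nearest to an IDR region, against 0.481% of all genes (96 genes). At that rate the set would hold under 1 such gene, so its count of 0 is not a result about the set.

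The nearest IDR region to any of their starts lay 5.15 kb from *ceh-5*, at chrI:9721858-9722177, and the start nearest to it was that of *eat-16*. The next lay 23.6 kb from *ceh-24*. The distances to IDR regions were looked at after the counts were known.

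Of the 28 genes with a pooled region, 18 had 1 region, 5 had 2 or 3, and 5 had 4 or more. The last count is 6.67% of the 75 genes, against 3.18% of all genes. These 5 genes were *ceh-37* with 7 regions, *ceh-58*, *ceh-43* and *zfh-2* with 5 each, and *ceh-18* with 4. Among all genes, ordered by their number of pooled regions with tied genes sharing a rank, *ceh-37* ranked 100, the 3 genes with 5 regions 227, and *ceh-18* 375. In both replicate lists, 6 of the 75 genes had a region (*ceh-10*, *ceh-18*, *ceh-22*, *ceh-37*, *ceh-58* and *ceh-62*), against 2096 of all 19973 genes. A further 8 genes had a region in 1 replicate and none in the pooled list, and 39 had none in any list. The latter counts have no value over all genes beside them and are not read as a result about the set.

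**Figure D1:**
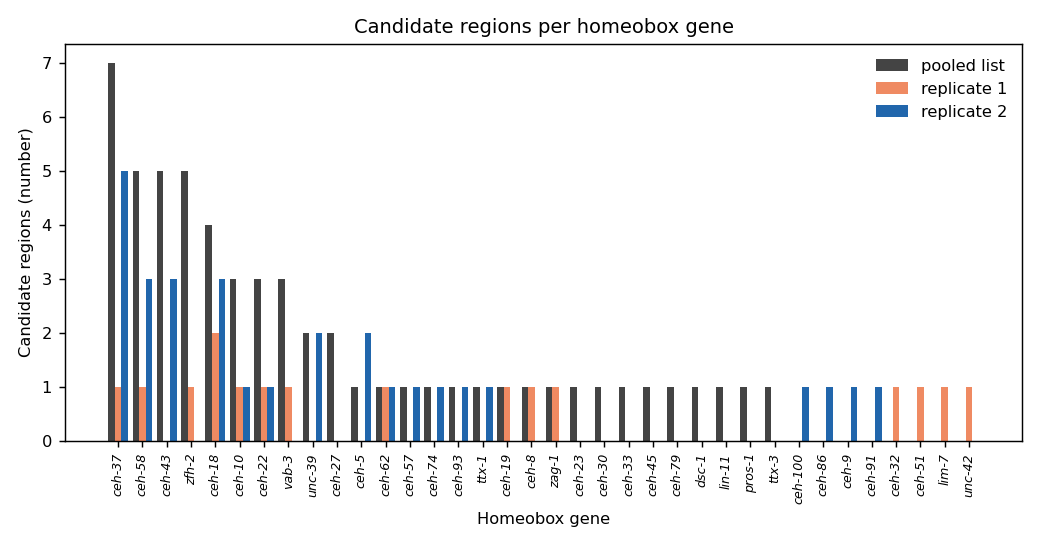
Number of candidate regions whose nearest transcript start belongs to each homeobox gene (x axis), in the pooled list, replicate 1 and replicate 2 (bars); the 39 genes with no region in any list are left out. *ceh-37* has 7 pooled regions, 1 in replicate 1 and 5 in replicate 2, and *zfh-2* has 5, 1 and 0.

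A gene with long flanking sequence can take more regions by length alone, so regions were also counted per length of the sequence that lies nearer to a gene's starts than to any other gene's. This length had a median of 6.27 kb for the 75 homeobox genes, against 3.78 kb for all genes. The homeobox genes had 9.45 pooled regions per 100 kb of it (95% Poisson interval 7.15 to 12.2), against 12.97 for all genes. Per gene the order was the other way round, with a mean of 0.76 regions for the homeobox genes, against 0.651 for all genes. When genes were split by this length, a split made after the first values were seen, homeobox genes had fewer regions per 100 kb than other genes in each of the 5 classes. In the class with most of them, 5 to 10 kb, 29 homeobox genes had 9.30 regions per 100 kb, against 12.6 for other genes. The intervals here and below treat regions as independent and cover counting error only. Regions and genes are not replicates and there was 1 group, so no test was made.

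**Figure D2:**
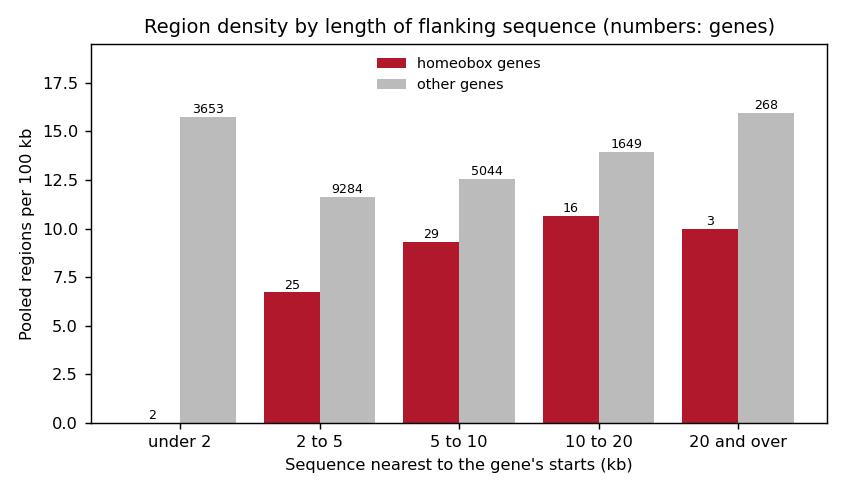
Pooled candidate regions per 100 kb (y axis) by the length of sequence nearest to a gene's starts (x axis, kb), for the homeobox genes (left bars) and all other protein-coding genes (right bars), with the number of genes above each bar. The homeobox bar is the lower one in every class; the class under 2 kb holds 2 homeobox genes and no region, and the class of 20 kb and over holds 3.

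By median signal, the regions of the homeobox genes lay in the weaker part of the pooled list. Signal is the authors' value for each region, on a scale that is not stated, and it is used here only within a list. In the pooled list the 57 regions had a median signal of 3.30 (range 2.57 to 16.97), against 3.89 (2.53 to 49.8) for all pooled regions, and the weakest IDR region had 21.3. On a percentile scale where the strongest region has 100, their median was 33.1 (95% interval of the median 27.6 to 41.96), against 50.2 for all pooled regions. The most common signal of the list, 2.78, was that of 14 of the 57 regions (24.6%), against 12.3% of all. A q-value at or below 0.05 was listed for 2 regions (3.51%), those at *ceh-37* and *ceh-62*, against 17.5% of all pooled regions. The shares at a common signal and by q-value were added after the signals were seen. One gene, *ceh-37*, had a region among the strongest 5% of the list (rank 649 or better), which is 1.33% of the 75 genes, against 2.95% of all genes.

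**Figure D3:**
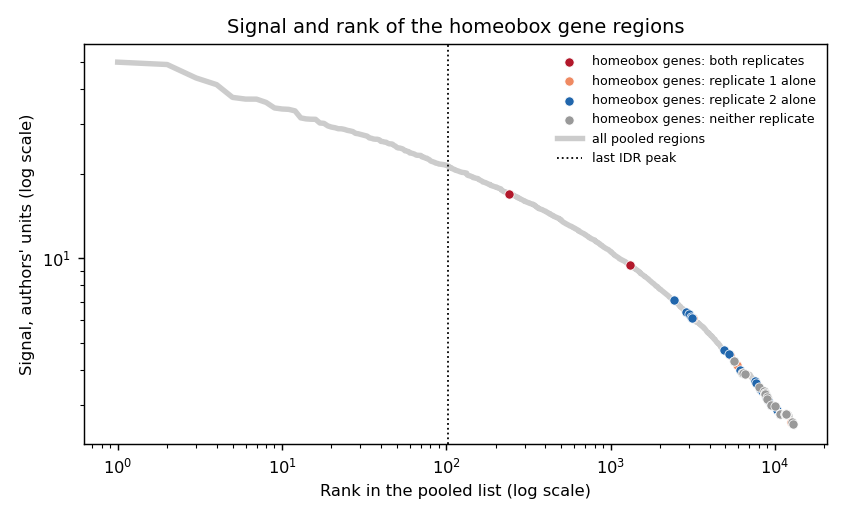
Signal in the authors' units (y axis, log scale) against rank in the pooled list (x axis, log scale) for the 57 regions of the homeobox genes (points, coloured by the replicates whose regions they overlap) and for all pooled regions (grey line); the dotted line marks the last IDR rank. The best homeobox region, at *ceh-37*, has rank 240 and signal 16.97, and most of the others lie at the weak end.

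Few of these regions were found in both replicates. Of the 57 pooled regions, 2 overlapped a region of each replicate (3.51%, exact 95% interval 0.428 to 12.1), against 13.3% of all pooled regions. By gene this was 2 of 75 (2.67%, *ceh-37* and *ceh-62*), against 6.67% of all genes. A region of replicate 2 alone was overlapped by 21 regions (36.8%, against 35.4% of all), and of replicate 1 alone by 8 (14.04%, against 17.6%). The other 26 overlapped neither (45.6%, interval 32.4 to 59.3), against 33.8% of all. The reads of both replicates entered the pooled list, which builds in part of any such overlap. Seen from the replicates, 10 of the 16 regions of replicate 1 and 22 of the 29 regions of replicate 2 overlapped a pooled region. The same overlap over all replicate regions is not given here, so these counts are not read as high or low.

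The paired and paired-like genes are the class of ALR-1 itself. Of 14 such genes, 7 had a pooled region, with 17 regions in all and 12.3 per 100 kb. The largest number, 7, was at *ceh-37*, an Otx-type gene that acts in the AWB olfactory neurons. Its strongest region (chrX:14194201-14194520) had a signal of 16.97 at rank 240 in the pooled list, overlapping a region with 2.58 at rank 3593 in replicate 1 and one with 9.36 at rank 449 in replicate 2. It was thus among the stronger regions of replicate 2 and in the weaker part of replicate 1. Its −log10 q of 2.90 is the highest value the pooled list holds, shared with other regions. The point was intergenic, 4462 bp downstream of the nearest *ceh-37* start and 3011 bp beyond the gene's far end, and the nearest start of another gene was that of *ceh-36*, an Otx-type gene of the ASE and AWC neurons, at 7795 bp. No pooled region was given to *ceh-36*.

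The other 6 regions of *ceh-37* had signals of 2.78 to 4.31. Of these, 3 overlapped regions of replicate 2, with 3.32, 3.79 and 3.49 there, 3 overlapped neither replicate, and none overlapped replicate 1. One of them (pooled signal 3.65, rank 7544) lay 55 bp upstream of a transcript start. The 7 points spanned 13.7 kb. All 7 are counted in the 37.2 regions per 100 kb of this gene.

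The next paired-class gene was *ceh-10*, related to vertebrate Vsx genes and required for the AIY and CAN neurons, with 3 regions within 1.05 kb. The strongest (chrIII:5795610-5795929) had a pooled signal of 6.32 at rank 2990 and lay 3277 bp upstream, in an intron of the neighbouring gene *polq-1*. The second, with 4.01 at rank 6113, had its point 207 bp away, so the 320 bp regions overlap, and both overlapped the same region of replicate 2 (2.78, rank 5628). They are counted as 2 regions here, and whether they mark separate sites was not tested. The third, with 2.78 at rank 10665, lay 4122 bp upstream in an exon of *polq-1*. It overlapped a region with 2.78 at rank 2735 in replicate 1.

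At *vab-3*, the Pax6 gene of the worm, 3 regions lay in introns. The strongest (chrX:10513055-10513374) had a pooled signal of 4.52 at rank 5329 and overlapped a region with 5.15 at rank 652 in replicate 1, the highest replicate 1 signal of the whole set. It had no counterpart in replicate 2, and the other two overlapped no region of either. *ceh-37* and *vab-3* thus had their highest replicate signals in different replicates. The remaining paired-class genes with a region had 1 each. They were *ttx-1*, an Otx-type gene of the AFD thermosensory neurons (pooled signal 3.37, replicate 2 signal 2.78), *ceh-8* (pooled 2.78, replicate 1 2.78), and *ceh-45* and *dsc-1* (pooled 2.78 each, neither replicate).

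**Figure D4:**
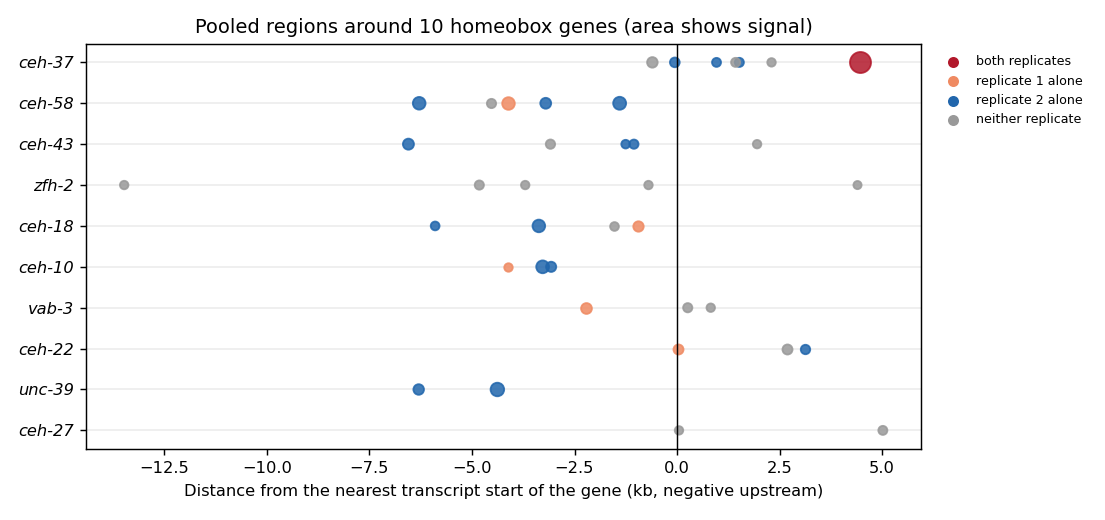
Position of the pooled regions (points) of the 10 homeobox genes with the most regions, as the distance of the region's point from the gene's nearest transcript start (x axis, kb, negative upstream); the area of a point is proportional to its signal and its colour gives the replicates it overlaps. The region of *ceh-37* at 4462 bp downstream is the single point found in both replicates, and the 5 points of *zfh-2* were found in neither.

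NK-like and other Antennapedia-class genes made up 23 of the set, and 7 had a pooled region, with 14 regions and 8.85 per 100 kb. None of the 14 overlapped both replicates. *ceh-43*, the Distal-less gene, which acts in head epidermis and dopaminergic neurons, had 5 regions, with pooled signals of 2.78 to 4.70. The strongest (chrIII:4456332-4456651, rank 4898) lay 6549 bp upstream and overlapped a region with 2.78 at rank 5347 in replicate 2. A pair of regions 1052 and 1254 bp upstream, with pooled signals of 3.29 and 2.88, overlap each other and the same region of replicate 2 (3.98, rank 3009). No region of *ceh-43* overlapped replicate 1. *ceh-22*, an NK-2 gene of pharyngeal muscle, had 3 regions with pooled signals of 3.89, 3.88 and 3.44. The second of these lay 22 bp downstream of a start and overlapped a region with 2.46 at rank 3816 in replicate 1, and the weakest one overlapped a region with 2.01 at rank 7567 in replicate 2, one of the last of that list of 7568.

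*ceh-27*, another NK-2 gene, had 2 regions with pooled signals of 3.16 and 2.78 and none in either replicate. Single regions lay at *ceh-30* (pooled signal 3.89, neither replicate), *ceh-19* (3.13, with 2.27 in replicate 1), *ceh-23* (3.00, neither) and *ceh-5* (2.78, with 2.78 in replicate 2). *ceh-30* is the Bar-class gene that keeps the male CEM neurons alive, and its region lay in its promoter, 735 bp upstream of a start. Its neighbour *ceh-31*, also of the Bar class, had no region in any list. Of the pair of Bar genes, then, 1 had a pooled region, near the middle of the list at rank 6260, and neither replicate held it.

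The LIM class, factors with a homeodomain and a pair of LIM domains, had the lowest density of the classes with any region, 3.103 per 100 kb. Of its 6 genes, 2 had a pooled region. *lin-11*, which acts in vulval cells and several neurons, had an intronic region with signal 2.78 at rank 10768. *ttx-3*, a regulator of the AIY interneuron, had a promoter region with 3.47 at rank 7990. Neither overlapped a replicate region, so both pooled regions of the class lacked a counterpart in the replicate lists.

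Of the POU genes, *ceh-18*, known for roles in gonadal sheath cells and oocytes, had 4 regions, all upstream of the nearest start, and *ceh-6*, known from the excretory cell, had none. The strongest *ceh-18* region (chrX:3861007-3861326) had a pooled signal of 6.14 at rank 3145 and a replicate 2 signal of 2.32 at rank 6539. One lay inside the gene body, in the promoter 954 bp upstream of an internal start, with a pooled signal of 4.17 and a replicate 1 signal of 2.78. The remaining regions had pooled signals of 3.00, with 3.16 in replicate 2, and 2.98, with no replicate region. The one with 2.98 also lay inside the gene body. None of the 4 pooled regions overlapped both replicates. Outside the pooled list, intronic sequence within *ceh-18* held a region of replicate 1 (chrX:3849855-3850244, signal 2.85) and one of replicate 2 (chrX:3849543-3849846, signal 3.26), which lay side by side without overlapping.

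Of the 4 SIX-class genes, 2 had a region. *unc-39*, of the Six4 and Six5 type and needed for migration and differentiation of several neurons, had 2 intergenic regions 1.92 kb apart. The one at chrV:14368533-14368852 had a pooled signal of 7.08 at rank 2417 and a replicate 2 signal of 4.39 at rank 2586. The one at chrV:14366615-14366934 had a pooled signal of 4.31 at rank 5655 and a replicate 2 signal of 6.62 at rank 1133. Their order by signal was therefore opposite in the pooled list and in replicate 2, and replicate 1 had neither. *ceh-33* had 1 region (3.87, neither replicate).

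Of the classes with 1 or 2 genes, the zinc finger homeobox genes both had regions. *zfh-2* had 5, spread over 32.6 kb, with pooled signals of 2.57 to 3.29, and none overlapped a replicate region. Its nearest sequence measured 45.7 kb, which gives 10.9 regions per 100 kb, below the 12.97 of all genes. *zag-1*, a ZEB-type factor of neuronal differentiation and axon guidance, had 1 region 976 bp upstream (2.62 pooled, 2.46 in replicate 1). *pros-1*, the Prospero gene, known for its role in glia, had 1 (2.78, neither replicate). *irx-1*, the Iroquois gene, had none.

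The other 22 genes, mostly of high *ceh* numbers, were put in no class, and 6 had a region, with 10 regions and 9.07 per 100 kb. The 5 regions of *ceh-58* lay upstream of it, from 1400 to 6287 bp, and spanned 4.89 kb, at 55.4 regions per 100 kb. The pooled signals were 6.46, 6.19, 6.12, 4.57 and 3.32. The ones with 6.46, 6.19 and 4.57 overlapped regions of replicate 2 with 3.60, 3.38 and 3.50, the one with 6.12 a region of replicate 1 with 2.71, and the weakest neither. No pooled region of *ceh-58* overlapped regions of both replicates. Next to it, *ceh-57* had 1 region (3.89, with 2.78 in replicate 2). *ceh-62* had the other region of the set that both replicates held: chrII:10804520-10804839, 1057 bp upstream, with a pooled signal of 9.46 at rank 1314, 3.88 at rank 1321 in replicate 1 and 3.31 at rank 4150 in replicate 2. The order of its replicate ranks was the reverse of that at *ceh-37*. Single regions also lay at *ceh-74* (3.60, with 3.25 in replicate 2), *ceh-93* (3.30, with 2.43 in replicate 2) and *ceh-79* (2.61, neither).

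The 47 genes with no pooled region were *ceh-14*, *lim-4*, *lim-6* and *lim-7* of the LIM class, 16 NK-like and other Antennapedia-class genes (*ceh-1*, *ceh-2*, *ceh-7*, *ceh-9*, *ceh-12*, *ceh-16*, *ceh-24*, *ceh-28*, *ceh-31*, *ceh-51*, *cog-1*, *mls-2*, *pal-1*, *tab-1*, *vab-15* and *vab-7*), *ceh-6*, the SIX-class *ceh-32* and *ceh-34*, *irx-1*, 7 paired-class genes (*ceh-17*, *ceh-36*, *ceh-53*, *ceh-54*, *pax-3*, *unc-4* and *unc-42*), and 16 unclassed genes (*ceh-63*, *ceh-75*, *ceh-76*, *ceh-81*, *ceh-82*, *ceh-83*, *ceh-84*, *ceh-86*, *ceh-87*, *ceh-88*, *ceh-89*, *ceh-90*, *ceh-91*, *ceh-92*, *ceh-99* and *ceh-100*). Of these, *ceh-32*, *ceh-51*, *lim-7* and *unc-42* had a region in replicate 1, with signals of 2.27 to 2.53, and *ceh-86*, *ceh-100*, *ceh-9* and *ceh-91* had one in replicate 2, with signals of 2.08 to 3.799. Several of these genes are known selectors of sensory and motor neurons, such as *unc-4* in A-type motor neurons, *cog-1* in the ASE neurons and *vab-15* in touch receptor neurons. A gene with no region had none at the depth of these libraries, which is unknown.

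The regions of the homeobox genes lay farther from transcript starts than regions in general. So did those of the Hox genes with cofactors and of *alr-1*, given below, so this is not particular to the 75 genes. Their median distance was 1977 bp (at most 13479), against 1012.5 bp for all pooled regions. Promoters, here 1000 bp upstream to 200 bp downstream of any protein-coding start, held 14 of 57 (24.6%, interval 14.1 to 37.8), against 40.3% of all. Intergenic sequence held 26 (45.6%, interval 32.4 to 59.3), against 26.4%, introns 13 (22.8%, against 21.6%) and exons 4 (7.02%, against 11.8%). Over 3000 bp from the nearest start lay 22 (38.6%, interval 26 to 52.4), against 17.1%. The sequence nearest to the starts is longer at these genes, as given above, and its part in these shares was not tested. Upstream of the nearest start lay 34 (59.6%), against 59.97% of all. Relative to the gene body, a split made after the distances were seen, 29 regions lay before it, 19 inside and 9 beyond its far end. The same split over all pooled regions is not given here, so these counts are not read as a result about the set. On X lay 18 of the 57 regions (31.6%, against 24.01% of all), with 20 of the 75 genes there.

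**Figure D5:**
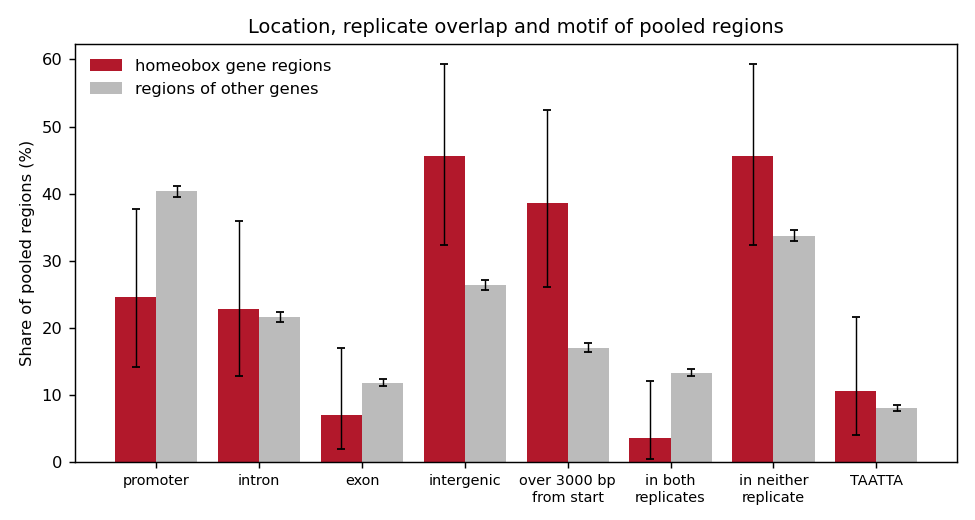
Share of pooled regions (y axis, %) by location, distance, replicate overlap and TAATTA, for the 57 regions of the homeobox genes (left bars) and the regions of all other genes (right bars); error bars are exact 95% intervals. The homeobox bar is lower for promoters (24.6%) and both replicates (3.51%) and higher for intergenic sequence (45.6%) and distances over 3000 bp (38.6%).

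TAATTA, its own reverse complement, so that both strands are read at once, lay within 100 bp of the point in 6 of the 57 regions (10.5%, interval 3.96 to 21.5), against 7.97% of all pooled regions. The interval takes in the share of all regions. The 6 regions were 3 at *ceh-58* and 1 each at *ceh-62*, *ceh-43* and *ceh-27*. Of them, the one at *ceh-62* was found in both replicates. A pair of inverted TAAT cores with 3 bases between them was found in 1 region, at *lin-11* (1.75%, against 0.908% of all), and holds no TAATTA there. GC content of the same windows was 38.7% ± 7.53 (SD, 57 regions), against 38.4% ± 6.59 for all pooled regions. A match is a run of letters and not a shown binding site.

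Set beside the other homeobox genes, the 75 genes had regions less densely spaced. They had 9.45 pooled regions per 100 kb, against 27.3 at the 10 Hox genes and cofactors (32 regions, 7 of 10 genes), 18.4 at the 6 ONECUT genes (5 regions, 4 of 6 genes) and 132 at *alr-1* (21 regions). At *mec-3*, *unc-86* and *unc-30* together the density was 26.5 (5 regions, 3 of 3 genes). The densities there and at the ONECUT genes rest on 5 regions each and have no interval, so these differences are not established. The share of regions in both replicates was 2 of 57, against 9 of 32 at Hox genes and cofactors and 14 of 21 at *alr-1*. It was 1 of 5 at the ONECUT genes and 1 of 5 at *mec-3*, *unc-86* and *unc-30*. The median signal was 3.30, against 5.34 at Hox genes and cofactors and 10.9 at *alr-1*. It was 4.36 at the ONECUT genes and 3.86 at *mec-3*, *unc-86* and *unc-30*. The median distance from a start was 1977 bp, against 1800.5 bp at Hox genes and cofactors and 6149 bp at *alr-1*. It was 334 bp at the ONECUT genes and 199 bp at *mec-3*, *unc-86* and *unc-30*. In that order of groups, promoters held 28.1%, 4.76%, 40% and 100% of regions, against 24.6% for the 75 genes. Over 3000 bp from a start lay 25%, 61.9%, 0% and 0%, against 38.6%. The transgene adds copies of *alr-1*, so copy number and binding cannot be told apart in the values at that gene. The best region of the 75 genes, at *ceh-37*, had rank 240. Best ranks elsewhere were 37 at *alr-1*, 1 at *ceh-38* of the ONECUT genes and 413 at the Hox gene *lin-39*. They were 255 at *unc-30*, which specifies GABA motor neurons, 1496 at *mec-3* and 11518 at *unc-86*. The groups were set apart with earlier results of these data known, so lower values for the remaining genes may be built in. All these values describe 1 pair of libraries and were not tested.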

How the data were processed

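The data were lists of candidate regions from ChIP-seq of 2 biological replicates, which formed 1 group. Per the deposited file notes, the authors called regions per replicate against a control and on the replicates together (the pooled list), and derived an IDR list. All lists used are on ce11. Each region has the authors' signal value, on a scale that is not stated, and a −log10 q-value, as deposited. Not given in the sources used here are the aligner, the caller and the threshold on IDR. Depth is unknown, so no precision could be derived from it. The ce10 lists were not used here.

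Regions were placed by their point on WBcel235, which is ce11, with protein-coding transcripts of Ensembl release 115. The nearest transcript start gave the gene; 9 pooled regions were tied between genes, 0 of them at the genes described. The annotation holds no gene named *ceh-44*. Overlap meant at least 1 bp. Classes came from general knowledge of homeobox genes. Shares have exact Clopper-Pearson 95% intervals. No test was made, since there was 1 group. Genes were described in detail if they had an IDR region, were among the 15 with the most regions or the 10 with the strongest, belonged to a class of 1 or 2 genes, or had a region of the strongest 5% in both replicates; other genes with a region are named by their values. The genes, classes and lists were chosen with earlier results of these data known.

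Alternatives were other rules for starts and distance, the stronger 50% of the pooled list, each replicate's list in place of the pooled one, and other overlap, promoter and motif windows. Scripts ran under Python 3.11.15 with scipy 1.17.1, pandas 2.3.3, numpy 2.4.6 and matplotlib 3.10.9. Gene assignment and flank lengths were tested on simulated data.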

Additional observations from a re-analysis of the deposited data

How the results depend on the processing

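Smaller lists give fewer regions by construction. In the stronger 50% of the pooled list, 11 of the 75 homeobox genes had a region. This is a lower share than the 21.7% of all genes, unlike in the whole list. The density there was 2.98 regions per 100 kb (against 6.48). With the list of replicate 1 in place of the pooled one, 15 genes had a region (20%, against 18.5% of all genes). With that of replicate 2 it was 17 (22.7%, against 24.4%). The density was 2.65 and 4.81 per 100 kb (against 5.06 and 7.55), and the median percentile 28.1 and 42.6 (against 50.01 and 50.03). In every setting tried, the density, the median percentile, the promoter share and the share in both replicates were lower for the homeobox genes than for all genes or regions. Promoters of 500 bp upstream and 100 bp downstream held 10.5% of their regions (against 27.6%). TAATTA was in 24.6% within 250 bp of the point (against 20.7%) and in 8.77% within 50 bp (against 4.22%). In the stronger 50% of the pooled list it was in 16.7% (against 7.58%). It was in 10.3% of the 29 regions of replicate 2 (against 7.74%) and 25% of the 16 of replicate 1 (against 7.06%). These shares rest on few regions and have no interval. The count of regions at single genes depends on the list: *ceh-37* had 7 pooled regions, 5 in replicate 2 and 1 in replicate 1, and *zfh-2* had 5, 0 and 1. With the outermost starts of each gene alone, *ceh-37* had 5 and *vab-3* 1. No paired analysis was possible because the replicates formed a single group and no test was made. The libraries' depth is unknown and limits which weak regions could be found.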

Other observations

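The nearest start does not always lie in the gene that holds a region. A search made after the counts were known found 3 pooled regions inside the body of a homeobox gene but nearest to a start of another gene. The one inside *ceh-14*, a LIM gene of thermosensory and other neurons, had a signal of 3.25 at rank 8773, overlapped a region of rank 3330 in replicate 2, and was nearest to F46C8.3. The ones inside *ceh-5* (signal 4.22, nearest to *ocrl-1*) and *ceh-8* (signal 2.94, nearest to *col-63*) overlapped no replicate region. Counting them would give *ceh-14* a region it does not have by the nearest-start rule. The reverse also occurred. All regions of *ceh-10* lay in the body of *polq-1*, and those of *ceh-19*, *ceh-5*, *ceh-74* and *dsc-1* in other genes' bodies.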
